A study of Mus musculus with 9 samples.

Results

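The genes described here are 48 genes of mitosis and of the mitotic spindle, read in thymic invariant natural killer T (iNKT) cells. They were taken by their symbols from a table of 21883 genes, in which each of the 48 was found once. The list holds cyclins with their kinase CDK1 and the factor FOXM1, mitotic kinases, subunits of the chromosomal passenger complex, kinesins, centromere and kinetochore proteins, condensins and other chromosome proteins, spindle assembly factors, and proteins of cytokinesis and of the exit from mitosis. The 9 RNA libraries form 3 groups of 3: WT cells of stage 2, WT cells of stage 3, and stage 2 cells deficient in Med23, all sorted from the thymus of C57BL/6 mice. Stage 2 cells carry little CD24, much CD44 and little of the receptor NK1.1, and stage 3 cells carry much NK1.1. The WT mice were 6 weeks old, and no age is given for the Med23-deficient mice. In those mice, floxed Med23, which encodes a subunit of the Mediator complex, was removed by a Cre recombinase under a CD4 promoter. The paper describes this deletion as efficient by the double-positive thymocyte, from which it says most iNKT cells arise. The labels number the replicates and do not say which came from separate mice, so p-values measure the spread between these libraries only.

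Cells that enter division switch on a shared set of genes late in the cell cycle. Cyclins A and B activate CDK1, which starts mitosis. Condensins and topoisomerase II compact and untangle the chromosomes, kinesins and spindle factors build the spindle, kinetochore proteins tie chromosomes to it, and the passenger complex and checkpoint kinases watch over the attachment before the anaphase-promoting complex releases the sister chromatids. The products of many of these genes are made in each cell cycle and removed after it, so their transcripts are widely read as a measure of how many cells are dividing. Early iNKT cells divide in the thymus before they mature, and mature NK1.1-positive cells are mostly at rest.

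Many promoters of this set share a short element, the cell cycle genes homology region (CHR), bound by complexes built on the MuvB core, which hold the genes silent in resting cells and turn them on before mitosis, often beside CCAAT boxes bound by NF-Y. The RefSeq promoter table (GRCm38.p6, 250 bases before to 50 after each start) held an entry for 40 of the 48 genes, with 2 entries each for Ect2 and Prc1. It held none for Aurkb, Ccna2, Foxm1, Incenp, Kif20a, Smc4, Spc24 and Tpx2. The stretches below, from 150 bases before to 30 after the start, belong to the genes on which the results turn and were picked after their values had been seen. They are written 5′ to 3′ on the strand of the gene, and capitals mark the CHR letters TTTGAA, their variant TTCGAA, and CCAAT, each searched on both strands, so that a match on the opposite strand reads TTCAAA or ATTGG.
Mki67 (chr7:135716350-135716529, minus strand): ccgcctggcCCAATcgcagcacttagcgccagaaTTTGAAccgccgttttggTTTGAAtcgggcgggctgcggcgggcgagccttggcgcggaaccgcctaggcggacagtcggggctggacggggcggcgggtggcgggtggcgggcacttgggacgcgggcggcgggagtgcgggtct
Ccnb2 (chr9:70421525-70421704, minus strand): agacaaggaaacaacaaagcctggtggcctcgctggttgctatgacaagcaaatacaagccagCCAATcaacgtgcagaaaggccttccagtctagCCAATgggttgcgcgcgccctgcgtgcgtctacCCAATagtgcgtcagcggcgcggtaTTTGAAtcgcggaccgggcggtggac
Cdk1 (chr10:69352883-69353062, minus strand): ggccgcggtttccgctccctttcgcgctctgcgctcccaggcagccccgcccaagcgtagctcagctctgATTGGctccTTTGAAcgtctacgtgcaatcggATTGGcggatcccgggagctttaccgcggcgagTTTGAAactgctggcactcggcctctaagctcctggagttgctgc
Cdca8 (chr4:124936888-124937067, minus strand): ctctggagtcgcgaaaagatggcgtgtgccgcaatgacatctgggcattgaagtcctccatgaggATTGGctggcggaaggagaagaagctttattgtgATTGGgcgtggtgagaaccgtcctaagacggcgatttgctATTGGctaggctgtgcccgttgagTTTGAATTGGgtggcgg
Cdc20 (chr4:118437314-118437493, minus strand): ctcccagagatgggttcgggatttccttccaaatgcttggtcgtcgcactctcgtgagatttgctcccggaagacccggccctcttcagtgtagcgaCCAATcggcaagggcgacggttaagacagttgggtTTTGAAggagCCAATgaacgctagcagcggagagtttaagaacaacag
Hmmr (chr11:40733408-40733587, minus strand): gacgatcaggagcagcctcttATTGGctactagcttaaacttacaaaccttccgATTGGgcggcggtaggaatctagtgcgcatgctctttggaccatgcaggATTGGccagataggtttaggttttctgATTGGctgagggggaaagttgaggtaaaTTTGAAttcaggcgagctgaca
Bub1 (chr2:127831830-127832009, minus strand): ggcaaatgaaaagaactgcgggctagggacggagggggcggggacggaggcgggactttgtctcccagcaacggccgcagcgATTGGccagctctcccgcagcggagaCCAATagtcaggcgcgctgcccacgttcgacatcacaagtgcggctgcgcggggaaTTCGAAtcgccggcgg
Birc5 (chr11:117849087-117849266, plus strand): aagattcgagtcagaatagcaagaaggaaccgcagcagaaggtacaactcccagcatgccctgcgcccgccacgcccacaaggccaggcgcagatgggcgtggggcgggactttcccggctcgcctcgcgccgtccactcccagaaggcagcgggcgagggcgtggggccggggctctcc
Kif20b (chr19:34922208-34922387, plus strand): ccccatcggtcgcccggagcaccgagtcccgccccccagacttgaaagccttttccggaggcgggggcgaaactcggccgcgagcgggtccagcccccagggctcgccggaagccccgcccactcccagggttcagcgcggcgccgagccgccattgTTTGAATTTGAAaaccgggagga

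The letters TTTGAA were found in 33 of the 40 promoters (82.5%), against 20.2% of the 27025 genes in the promoter table. Within 50 bases of the start they stood in 30 of the 40 (75.0%), against 5.72% of all genes. CCAAT was found in 31 of the 40 (77.5%), against 41.1% of all genes, and 28 of the 40 (70.0%) held both, against 7.97%. A motif searched for contrast, the E box CACGTG, was found in 3 of the 40 (7.5%), against 8.09% of all genes. The plot of match positions shows where these letters lay. In Ccnb2 (cyclin B2) TTTGAA began at base 5 after the start, with CCAAT at -21, -54 and -87 before it, and in Cdca8 the letters TTTGAA at base 14 overlapped a CCAAT of the opposite strand by 1 base. Mki67, which encodes the proliferation antigen Ki-67, held TTTGAA at 2 places, -116 and -98. Kif20b held a pair of adjoining TTTGAA at bases 8 and 14 and no CCAAT. Of the other genes shown, Bub1 had no TTTGAA but 1 TTCGAA, and Birc5 neither of these nor a CCAAT. Besides them, Ccnb1, Cenpe, Ncaph, Nuf2 and Nusap1 had no TTTGAA in this window. These are matches of letters to a window and were not measured as bound sites.

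**Figure D1:**
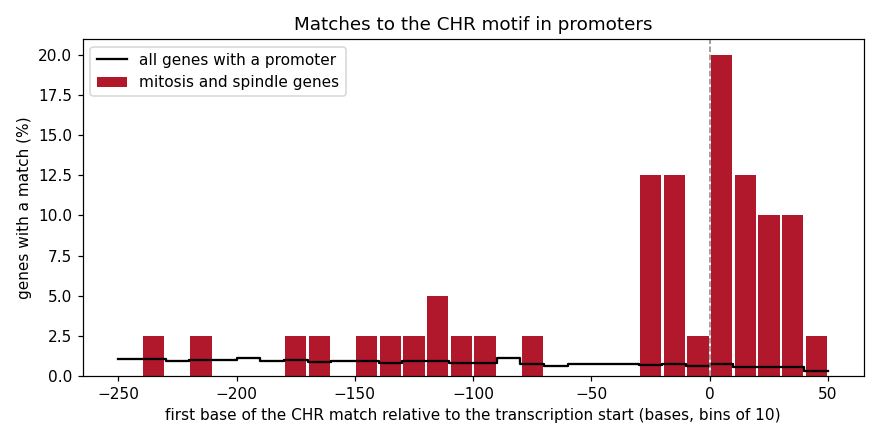
Share of genes with a match to the CHR motif (y axis, percent) by the position of its first base relative to the transcription start (x axis, bases, bins of 10), for the 40 mitosis and spindle genes with a promoter entry (bars) and for all 27025 genes with one (line). The bars stand highest in the bins around the start, where 30 of the 40 genes had a match within 50 bases, and the line stays low throughout.

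The authors deposited FPKM, that is, fragment numbers per gene relative to transcript length and to all mapped fragments. Read depth is not given by these values, and 15584 to 17333 genes lay above 0 in a library, with no group standing apart in that range. Med23 itself read 5.51, 5.15 and 6.74 FPKM in WT stage 2, 7.14, 4.44 and 6.12 in WT stage 3, and 4.80, 3.60 and 3.92 in Med23-deficient cells. The Med23-deficient values lay below all WT values but that of WT stage 3 replicate 2, which 1 of them exceeded. FPKM pools all exons, so RNA of the exons outside the deletion is counted too. How complete the deletion was in the sequenced cells was not tested. The labelled cell types were checked on T cell and iNKT genes: Cd3e lay between 110 and 138 FPKM and Zbtb16, the gene of the iNKT factor PLZF, between 22.7 and 112 in all 9 libraries. Klrb1c, which encodes NK1.1, read 57.3 to 95.1 in WT stage 3, 7.65 to 26.2 in WT stage 2 and 2.61 to 4.60 in Med23-deficient cells. The stage 3 markers Klrd1, Klrk1 and Klra7 likewise had their highest means in WT stage 3 and their lowest in Med23-deficient cells. Il2rb and Tbx21 were also highest in WT stage 3, at means of 311 and 73.2. Their means in Med23-deficient cells, 129 and 38.9, were not below those of WT stage 2, 121 and 29.4. WT stage 3 replicate 2 stood apart in Xist, which read 47.5 FPKM there and at most 0.01 in the other 8 libraries. The histone gene Hist1h1b read 15.6 there, against 3.03 and 2.03 in WT stage 3 replicates 1 and 3. This library also gave the highest value of its group for 31 of the 48 genes, and results that rest on it are given with and without it.

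Together the 48 genes were far more abundant in WT stage 2 than in either other group. Their summed FPKM was 157, 149 and 191 in the WT stage 2 libraries, 49.3, 72.4 and 46.5 in WT stage 3, and 53.6, 51.8 and 54.7 in Med23-deficient stage 2. WT stage 2 overlapped neither group. The Med23-deficient libraries lay within the range of WT stage 3 only through WT stage 3 replicate 2, and without it they lay above the remaining 49.3 and 46.5. The median gene read 1.58 to 1.90 FPKM in WT stage 2, 0.135 to 0.505 in WT stage 3 (0.135 and 0.195 without replicate 2) and 0.255 to 0.340 in Med23-deficient cells. WT stage 2 held the highest mean for 47 of the 48 genes, the exception being Aurka. The median gene kept 18.4% of its WT stage 2 mean in WT stage 3 and 20.3% in Med23-deficient cells. All 6 libraries of the latter groups lay below every WT stage 2 library for 30 of the 48 genes, against 4.13% of all genes in the table, and for 32 without WT stage 3 replicate 2, against 4.77%. In these bulk libraries fewer dividing cells and less of these RNAs per cell cannot be told apart.

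The members differed widely in level. In WT stage 2 the proliferation gene Mki67, the condensin subunit gene Smc4 and the passenger complex scaffold gene Incenp had means of 28.9 ± 6.32, 18.3 ± 1.53 and 17.1 ± 1.05 FPKM (SD, n = 3), while 36 of the 48 had a mean of at least 1. In WT stage 3 this number was 9, and in Med23-deficient cells 10. Only 41 genes reached 1 FPKM in any library. The others were Bub1, Ttk, Kif18b, Spc24, Prc1, Anln and Espl1, and no counting error can be given for their low values. In WT stage 2, 5 genes were listed at 0 in at least 1 library, and in each of the other groups 20 were.

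**Figure D2:**
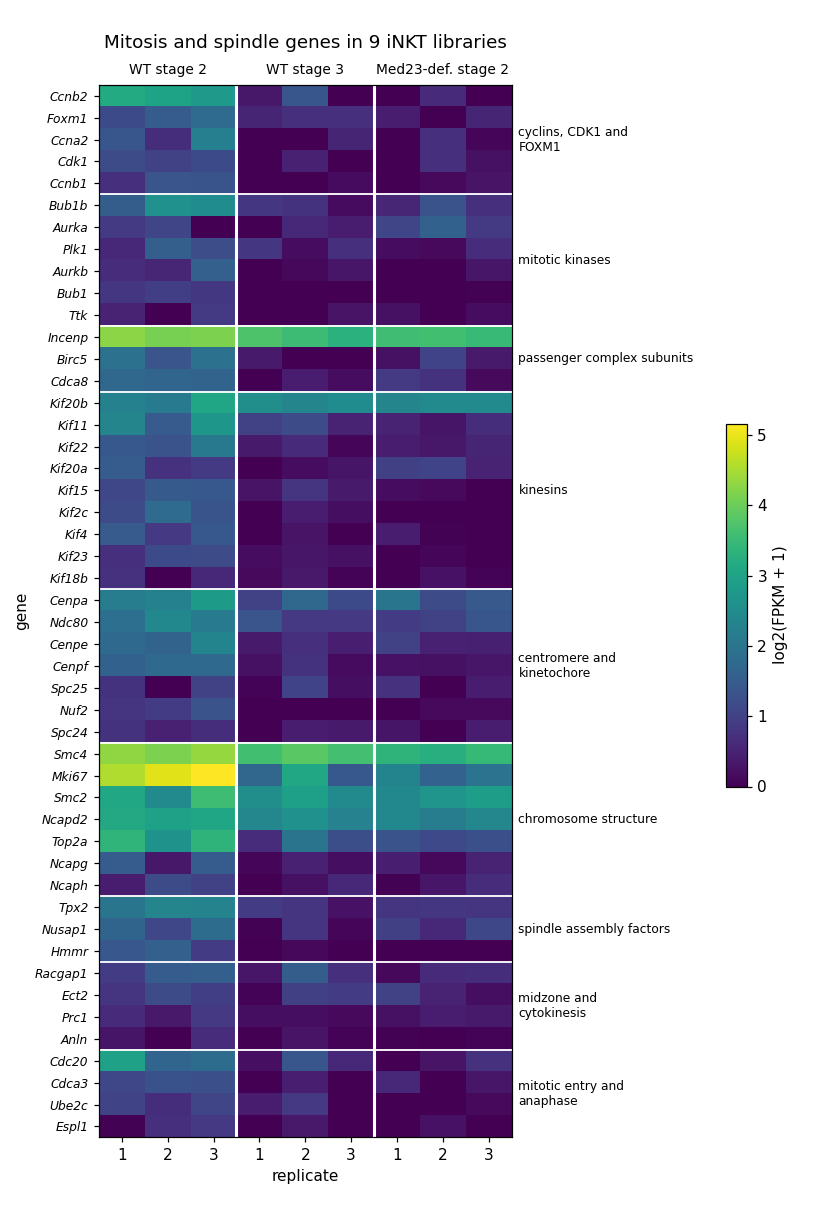
Level of each of the 48 genes (rows, by role) in each of the 9 libraries (columns, by group and replicate), coloured by log2(FPKM + 1). The 3 WT stage 2 columns are brighter than the other 6 for most genes, Incenp, Smc4, Smc2, Ncapd2 and Kif20b stay bright throughout, and WT stage 3 replicate 2 is the brightest of its group for 31 genes.

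The first comparison asked how the genes differ between the stages of normal maturation, WT stage 3 against WT stage 2. All 48 had a log2 fold change below 0, with a median of -0.88 on the log2(FPKM + 1) scale, beside -0.01 over the 20689 genes tested. By the thresholds of the study, a 2-fold difference or more with an unadjusted limma p no higher than 0.05, 21 of the 48 were lower, against 1.9% of all genes tested. None was higher: limma gave 0 at these thresholds and 0 at the unadjusted p alone, and a linear model after Ballgown gave 0 at these thresholds. An adjusted p of at most 0.05 was passed by 4 genes, Mki67, Birc5, Cdca8 and Bub1, against 0.914% of all genes, but 0 to 2 did so with 1 library left out, and 0 with the replicate block or after Ballgown. Among all genes tested, 22 to 137 passed it with 1 library left out, 19 with the replicate block and 5 after Ballgown. For 34 genes WT stage 3 lay wholly below WT stage 2, against 10.4% of all genes. Without WT stage 3 replicate 2, the 34 became 38 (14.0% of all genes), and the 21 became 22. After Ballgown 9 of the 48 met both thresholds, beside 772 of all genes in either direction. Mki67, Bub1b, Kif11, Cenpa, Ndc80, Nusap1, Cdc20 and Cdca3 were among those that met both in limma but not after Ballgown. Of the 21, 15 met both thresholds whichever library was left out, a share that was not counted for all genes called. The others were Cdc20, Kif11, Cenpa and Ndc80, described below, Ccna2 (without WT stage 2 replicate 1 or 3 or WT stage 3 replicate 1 or 2, -1.28 to -0.85) and Ccnb1 (without WT stage 2 replicate 2, -0.97, or 3, -0.98). The fold changes carry a pseudocount of 1, which holds back those of genes near or below 1 FPKM, so for a gene listed at 0 in some library they are no measure of its full change.

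The second comparison, called the Med23 comparison below, asked how the genes differ in stage 2 cells of Med23-deficient mice, against WT stage 2. The Med23-deficient samples are numbered in a block apart from the WT samples, and the age of these mice is not given. Genotype cannot be told apart from a difference in either. Of the 48, 47 had a log2 fold change below 0, with a median of -0.90, beside -0.01 over the 20674 genes tested. Both thresholds were met by 19, all lower, against 1.32% of all genes lower. After Ballgown 11 of the 48 met them, beside 384 of all genes in either direction. Foxm1, Bub1b, Kif11, Ndc80 and Cdc20 were among those that met both in limma but not after Ballgown. Mki67 and Ccnb2 passed an adjusted p of 0.05 in limma, against 0.145% of all genes, and neither did with any 1 of the 6 libraries left out, with the replicate block or after Ballgown. Few of all genes tested did so in these settings: 1 to 8 with 1 library left out, 0 with the replicate block and 1 after Ballgown. Of the 19, 14 met both thresholds whichever library was left out, a share likewise not counted for all genes called. The others were Ndc80 (without WT stage 2 replicate 2 or Med23-deficient replicate 1 or 2, all short of 2-fold), Cdca8 (Med23-deficient replicate 3, -0.87), Kif4 (WT stage 2 replicate 1, -0.99), Kif22 (WT stage 2 replicate 3, -0.96) and Ccna2 (WT stage 2 replicate 1 or 3, Med23-deficient replicate 1 or 3, -1.20 to -0.77). For 32 genes the Med23-deficient libraries lay wholly below WT stage 2, against 8.37% of all genes. Both comparisons use the same 3 WT stage 2 libraries, so their values for a gene are not independent. Both thresholds were met by 17 genes in both comparisons, Ccnb1, Cenpa, Nusap1 and Cdca3 in the WT comparison alone, Foxm1 and Kif15 in the Med23 comparison alone, and 25 in neither. The share of all genes that met them in both comparisons was not counted, so the 17 have no background beside them.

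**Figure D3:**
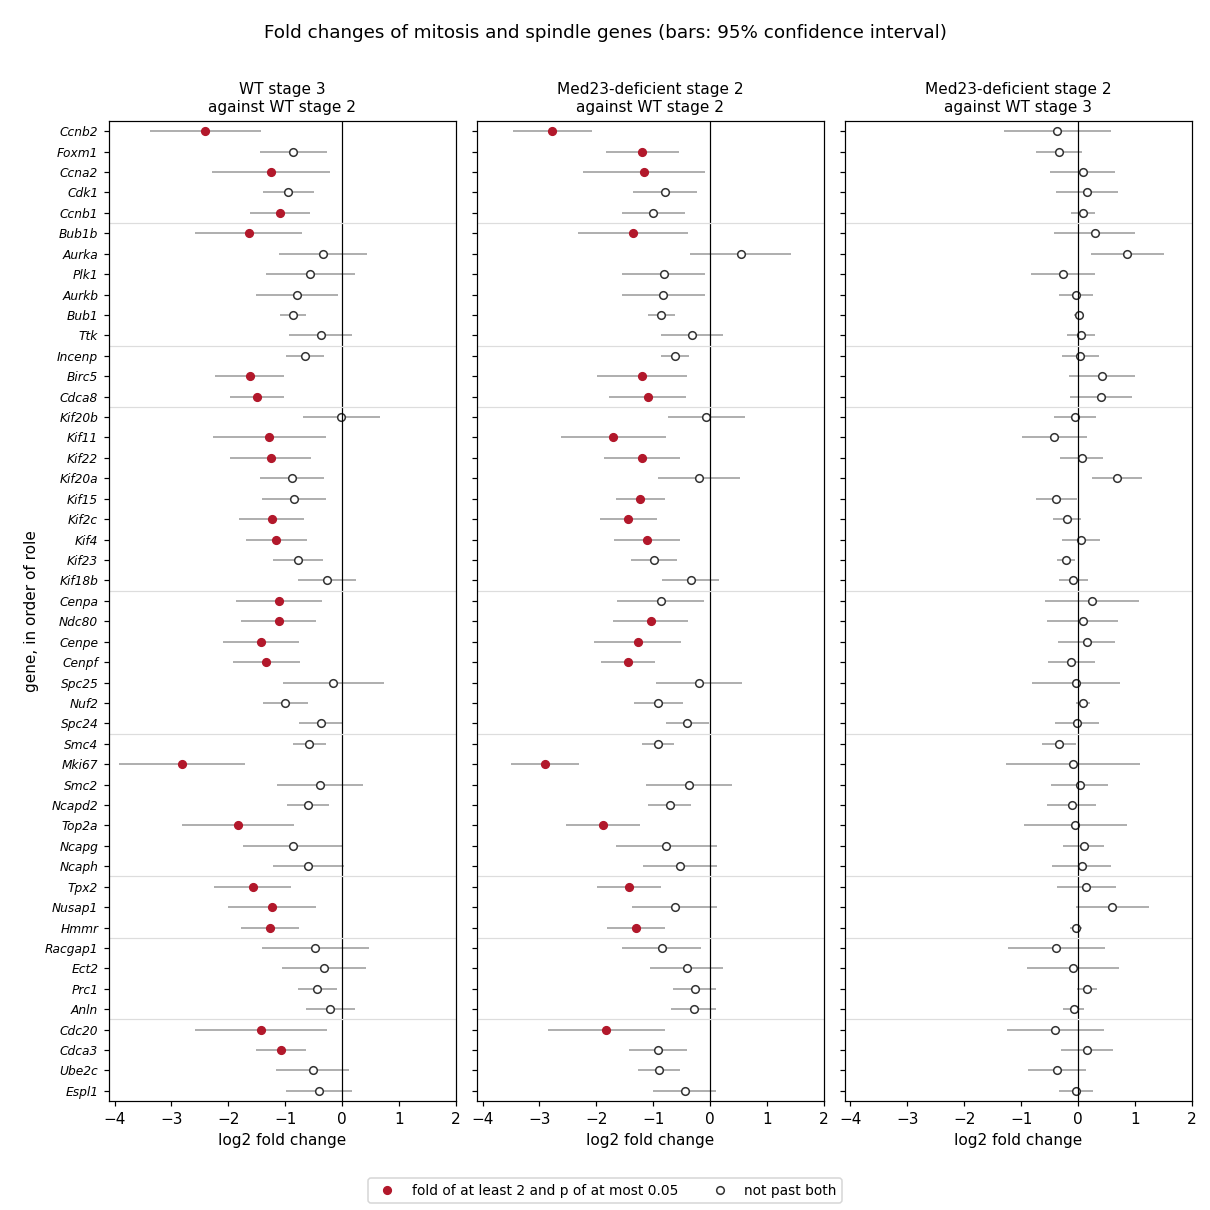
Log2 fold change on the log2(FPKM + 1) scale (x axis) of each of the 48 genes (y axis, by role) in the 3 comparisons, with bars for the 95% confidence interval from limma. Filled points met both thresholds, 2-fold and an unadjusted p of 0.05: 21 in the left panel, 19 in the middle and 0 in the right, where most points lie near 0 and Aurka and Kif20a lie farthest to the right.

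Among the 5 genes that drive entry into mitosis, Ccnb2 stood out. It read 7.89, 6.93 and 5.90 FPKM in WT stage 2, 0.26, 1.59 and 0 in WT stage 3, and 0, 0.53 and 0 in Med23-deficient cells. Every WT stage 2 value was more than any of the other 6 values, and 3 of these were 0. Its log2 fold change was -2.77 ± 0.28 (SE) with an adjusted p of 0.0367 in the Med23 comparison, and -2.41 ± 0.40 with an adjusted p of 0.0517, just short of the threshold, in the WT comparison. Cdk1, the kinase that cyclin B2 activates, read 1.27, 0.99 and 1.22 in WT stage 2, 0, 0.39 and 0 in WT stage 3, and 0, 0.65 and 0.17 in Med23-deficient cells. Again no value of the other groups reached the lowest of WT stage 2. Its log2 fold changes were -0.95 ± 0.18 and -0.79 ± 0.23, under the 2-fold threshold, with adjusted p of 0.0763 and 0.326. Foxm1, which encodes a forkhead factor that drives many genes of mitosis, read 1.24, 1.85 and 2.51 in WT stage 2, 0.44, 0.61 and 0.63 in WT stage 3, and 0.31, 0 and 0.44 in Med23-deficient cells. The groups were apart from WT stage 2 in both comparisons, with log2 fold changes of -0.86 ± 0.24 and -1.19 ± 0.26 and adjusted p of 0.194 and 0.201. The remaining cyclin genes Ccna2 and Ccnb1 were listed at 0 in 2 of 3 WT stage 3 libraries each and in 1 of 3 Med23-deficient libraries each.

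Among the mitotic kinases were the gene with the lowest p of the WT comparison and the only gene of the list that was highest outside WT stage 2. Bub1, a kinase of the spindle checkpoint, was low but even in WT stage 2, at 0.75, 0.94 and 0.78 FPKM. All 3 WT stage 3 libraries listed it at 0, and the Med23-deficient ones at 0, 0 and 0.02. Its log2 fold change in the WT comparison was -0.87 ± 0.09 with an adjusted p of 0.0195, the lowest of the 48 there, and in the Med23 comparison -0.86 ± 0.10 with an adjusted p of 0.0511. Bub1b, whose product BUBR1 holds back anaphase, read 1.89, 5.10 and 4.72 in WT stage 2, 0.75, 0.70 and 0.11 in WT stage 3, and 0.47, 1.49 and 0.65 in Med23-deficient cells. No library of either group reached the lowest WT stage 2 value, and the log2 fold changes were -1.64 ± 0.39 and -1.35 ± 0.40, with adjusted p of 0.124 and 0.336. Aurka, the kinase of centrosome maturation and of the spindle poles, read 0.83, 1.12 and 0 in WT stage 2, 0, 0.48 and 0.31 in WT stage 3, and 1.11, 2.04 and 0.84 in Med23-deficient cells. It was the only member with its highest mean in Med23-deficient cells, but the range of WT stage 2 overlapped both others. Its log2 fold change against WT stage 2 was 0.54 ± 0.37 in Med23-deficient cells, with an interval (95%) from -0.36 to 1.43, and -0.33 ± 0.32 in WT stage 3. Aurkb, the partner kinase of the passenger complex, had a mean of 1.01 ± 0.86 FPKM (SD, n = 3) in WT stage 2, and its values lay at 0 to 0.25 in the other libraries.

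The subunits of the passenger complex were split by level. Birc5, which encodes survivin, read 2.82, 1.58 and 2.83 FPKM in WT stage 2, 0.29, 0 and 0 in WT stage 3, and 0.17, 1.05 and 0.30 in Med23-deficient cells. Cdca8, which encodes borealin, read 2.34, 2.23 and 2.11, then 0.01, 0.31 and 0.12, then 0.84, 0.70 and 0.10. Both fell in WT stage 3, with log2 fold changes of -1.62 ± 0.25 and -1.50 ± 0.19 and adjusted p of 0.0445 and 0.0292, and in the Med23 comparison their values were -1.20 ± 0.33 and -1.10 ± 0.28, with adjusted p of 0.290 and 0.254. Incenp, the scaffold on which the complex is built, was abundant in every library, with means of 17.1 ± 1.05, 10.5 ± 1.65 and 10.8 ± 0.39 FPKM (SD, n = 3) in WT stage 2, WT stage 3 and Med23-deficient cells. All 6 values of the latter groups, 8.85 to 12.2, lay below the lowest of WT stage 2, 16.3. The difference was thus larger than the spread between replicates but under 2-fold, at 61.8% and 63.3% of WT stage 2, where Birc5 and Cdca8 kept 4.01% and 6.59% in WT stage 3 and 21.0% and 24.6% in Med23-deficient cells.

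Of the 9 kinesin motor genes, 4 met both thresholds in the WT comparison and 5 in the Med23 comparison, all lower, beside 1.9% and 1.32% of all genes lower. Kif11, the motor that pushes spindle poles apart, read 4.10, 1.78 and 5.67 FPKM in WT stage 2, 1.03, 1.31 and 0.40 in WT stage 3, and 0.41, 0.23 and 0.59 in Med23-deficient cells. WT stage 2 was widely spread but overlapped neither group, with log2 fold changes of -1.28 ± 0.41 and -1.70 ± 0.38 and adjusted p of 0.239 and 0.205. The first no longer passed without WT stage 2 replicate 1 (-1.20) or replicate 3 (-1.01) or without WT stage 3 replicate 3 (-1.07), and neither passed after Ballgown. Kif2c, a motor that takes microtubules apart at the centromere, was listed at 0 in all 3 Med23-deficient libraries, against 1.26 to 2.47 in WT stage 2 and 0 to 0.31 in WT stage 3. Kif20b, a motor of late mitosis and cytokinesis, behaved otherwise, at 3.82, 3.46 and 7.36 in WT stage 2, 4.89, 4.13 and 4.71 in WT stage 3, and 4.08, 4.49 and 4.57 in Med23-deficient cells. The 3 groups overlapped, and its log2 fold changes were -0.02 with an interval (95%) from -0.70 to 0.66, and -0.07 with one from -0.75 to 0.61.

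Of the 7 centromere and kinetochore genes, 4 met both thresholds in the WT comparison and 3 in the Med23 comparison, all lower, and limma gave 0 at the adjusted p. All but Spc25 lay wholly below WT stage 2 in each comparison, 6 of 7 beside 10.4% and 8.37% of all genes. Cenpa, the histone H3 variant of centromeres, read 3.51, 3.83 and 6.00 FPKM in WT stage 2, 1.01, 2.37 and 1.22 in WT stage 3, and 3.03, 1.28 and 1.72 in Med23-deficient cells. Its log2 fold changes were -1.11 ± 0.31 and -0.87 ± 0.32, with adjusted p of 0.183 and 0.447, and the first fell short of 2-fold when WT stage 2 replicate 3 (-0.92) or WT stage 3 replicate 1 (-0.97) was left out. Ndc80, the microtubule-binding subunit of the kinetochore, read 2.70, 4.32 and 3.39, then 1.56, 0.81 and 0.82, then 0.89, 1.03 and 1.59. Neither group reached the lowest WT stage 2 value, and the log2 fold changes were -1.12 ± 0.27 and -1.04 ± 0.27, with adjusted p of 0.134 and 0.267, and the first was -0.99 without WT stage 2 replicate 2. Nuf2, which pairs with NDC80 in the same complex, read 0.72 to 1.49 in WT stage 2 and 0, 0.10 and 0.09 in Med23-deficient cells, and every WT stage 3 library listed it at 0.

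The genes of chromosome structure differed widely in how far they moved. Mki67, whose product coats mitotic chromosomes, read 22.3, 29.7 and 34.8 FPKM in WT stage 2, 2.25, 7.47 and 1.69 in WT stage 3, and 4.05, 2.09 and 2.89 in Med23-deficient cells. The lowest WT stage 2 value lay far above the highest of the other libraries, which was WT stage 3 replicate 2. Mki67 fell in both comparisons, with log2 fold changes of -2.81 ± 0.45 (adjusted p = 0.0490 in limma) and -2.91 ± 0.24 (adjusted p = 0.0301), and the mean kept 13.1% and 10.4% of its WT stage 2 level. After Ballgown its value in the WT comparison was -2.17 and no longer met both thresholds. Top2a, which encodes topoisomerase II alpha, read 9.43, 5.21 and 9.20, then 0.58, 2.95 and 1.36, then 1.50, 1.21 and 1.40. It met both thresholds in each comparison, with log2 fold changes of -1.83 ± 0.40 and -1.88 ± 0.27 and adjusted p of 0.107 and 0.0774.

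The condensin genes did not move as one. Smc4 and Smc2 encode the ATPase pair shared by both condensins, and Ncapd2, Ncapg and Ncaph the subunits particular to condensin I. Smc4 read 18.9, 16.6 and 19.4 FPKM in WT stage 2, 11.1, 13.4 and 11.4 in WT stage 3, and 9.22, 8.53 and 9.99 in Med23-deficient cells, with no overlap between any of the groups. Its log2 fold changes were -0.58 ± 0.12 and -0.91 ± 0.12, with adjusted p of 0.0895 and 0.0618. Ncapd2 read 7.69, 6.73 and 7.17, then 4.25, 5.09 and 3.92, then 4.31, 3.47 and 4.24, likewise without overlap against WT stage 2, and its log2 fold changes were -0.60 ± 0.15 and -0.71 ± 0.16. Smc2 read 7.42, 4.49 and 10.8, then 4.85, 6.49 and 4.45, then 4.30, 5.45 and 6.43. Its groups overlapped, with log2 fold changes of -0.40, with an interval (95%) from -1.15 to 0.36, and -0.37, with one from -1.12 to 0.39. Ncapg and Ncaph kept 14.9% and 25.9% of their WT stage 2 means in WT stage 3 and 21.3% and 32.4% in Med23-deficient cells, but their WT stage 2 libraries ranged from 0.26 to 1.85 and from 0.33 to 1.25 FPKM and overlapped the others.

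The spindle assembly genes Tpx2, Nusap1 and Hmmr, whose products bind microtubules around chromosomes and poles, all met both thresholds in the WT comparison. Tpx2, whose product activates Aurora A, read 3.03, 4.09 and 3.98 FPKM in WT stage 2, 0.88, 0.74 and 0.19 in WT stage 3, and 0.74, 0.77 and 0.71 in Med23-deficient cells. All 6 values were at 0.88 or below, with log2 fold changes of -1.57 ± 0.28 and -1.43 ± 0.23 and adjusted p of 0.0598 and 0.103. Nusap1 read 2.17, 1.13 and 2.53, then 0.02, 0.73 and 0.05, then 0.98, 0.51 and 1.18, so that Med23-deficient cells overlapped WT stage 2 and WT stage 3 did not. Its log2 fold changes were -1.23 ± 0.32 and -0.62 ± 0.30, with adjusted p of 0.153 and 0.596. Hmmr, which encodes a hyaluronan receptor that also acts at spindle poles, read 1.63, 2.01 and 0.90 in WT stage 2 and was listed at 0 in 5 of the other 6 libraries, with 0.08 in WT stage 3 replicate 2.

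Of the 4 genes of the spindle midzone and of cytokinesis, 0 met both thresholds in either of the comparisons with WT stage 2, beside 1.9% and 1.32% of all genes lower. In each, 1 had an unadjusted limma p of at most 0.05, beside 13.2% and 9.58% of all genes in either direction. Ect2, Prc1 and Anln had WT stage 2 means of 0.973, 0.540 and 0.270 FPKM. With a pseudocount of 1 such genes cannot show a 2-fold fall, so the 0 does not say that they held their level. Racgap1, a subunit of the centralspindlin complex, read 0.86, 1.83 and 1.94 FPKM in WT stage 2, 0.25, 1.89 and 0.61 in WT stage 3, and 0.08, 0.53 and 0.60 in Med23-deficient cells. Its WT stage 3 replicate 2 lay within the WT stage 2 range, while Med23-deficient cells lay below it, with log2 fold changes of -0.47 ± 0.39 and -0.85 ± 0.28. Ect2, the exchange factor that starts the cleavage furrow, read 0.71, 1.27 and 0.94, then 0.04, 0.97 and 0.90, then 1, 0.41 and 0.14. It overlapped in both comparisons, and its intervals (95%) ran from -1.05 to 0.42 and from -1.05 to 0.23. Prc1 and Anln stayed below 1 FPKM in all libraries. Their means kept 23.5% and 30.9% of WT stage 2 in WT stage 3 and 48.8% and 8.64% in Med23-deficient cells.

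Of the genes that act at entry into and exit from mitosis, Cdc20, the activator of the anaphase-promoting complex, read 6.76, 2.22 and 2.56 FPKM in WT stage 2, 0.16, 1.62 and 0.51 in WT stage 3, and 0, 0.21 and 0.66 in Med23-deficient cells. Its log2 fold changes of -1.43 ± 0.48 and -1.82 ± 0.42 met both thresholds, with adjusted p of 0.267 and 0.211. The first of them no longer passed without WT stage 2 replicate 1, its highest library (-1.03), without WT stage 3 replicate 1 (-1.17) or replicate 3 (-1.36), or with the replicate block (-1.43), and neither passed after Ballgown. Cdca3, whose product helps to remove the mitosis inhibitor WEE1, read 1.13, 1.47 and 1.39, then 0, 0.35 and 0, then 0.49, 0 and 0.24. The groups were apart in both comparisons, with log2 fold changes of -1.07 ± 0.18 and -0.92 ± 0.21 and adjusted p of 0.0561 and 0.206. Ube2c, the ubiquitin-conjugating enzyme of the anaphase-promoting complex, was listed at 0, 0 and 0.09 in Med23-deficient cells, against 0.59 to 1.12 in WT stage 2 and 0 to 0.80 in WT stage 3.

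**Figure D4:**
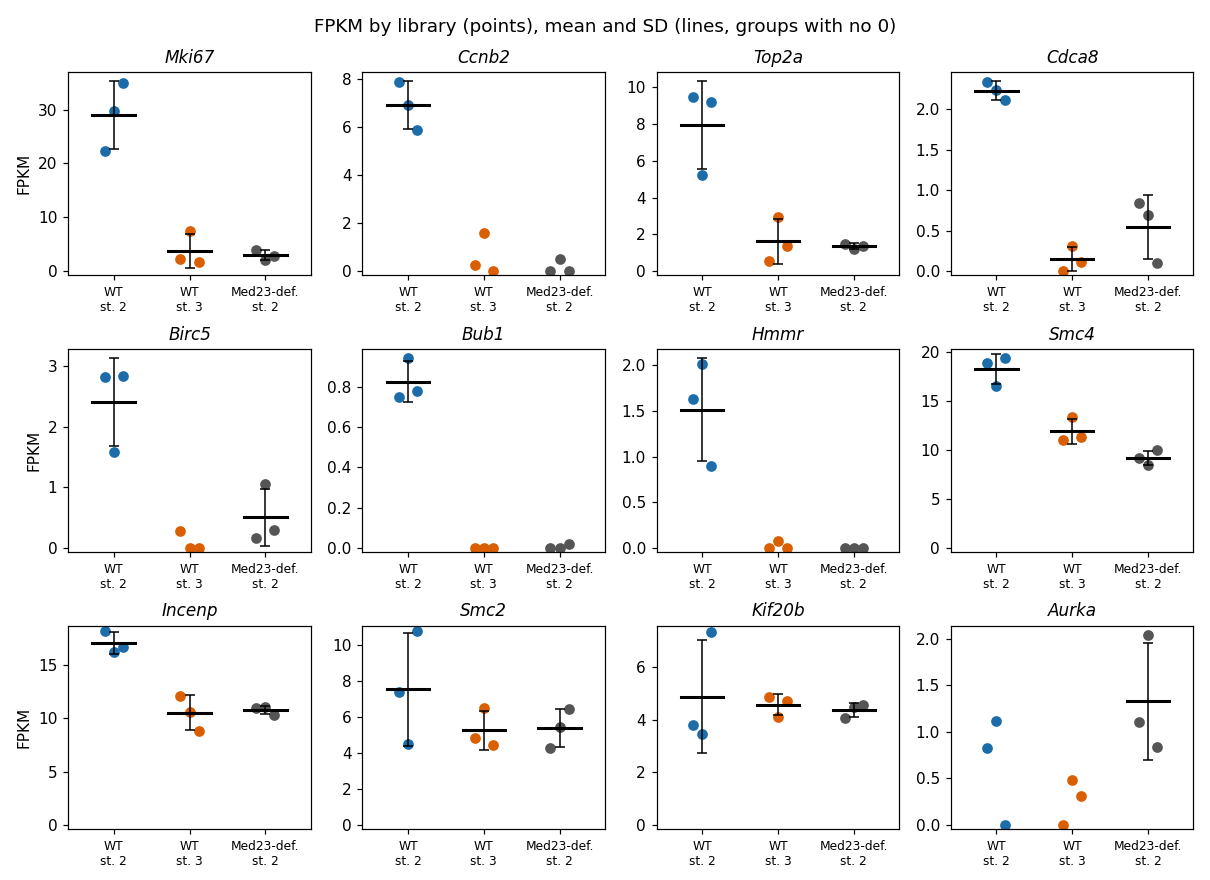
FPKM (y axis, linear) of 12 of the 48 genes in each library (points), with the mean and SD of each group that has no library at 0 (lines, n = 3, bars stopping at 0). From Mki67 to Hmmr the WT stage 2 points lie apart above the rest, Smc4 and Incenp are lower by under 2-fold, Smc2 and Kif20b overlap between groups, and Aurka has its highest points in Med23-deficient cells.

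The last comparison set Med23-deficient stage 2 cells against WT stage 3 cells, which differ in both stage and genotype, so these cannot be told apart. Both groups were low in most of the 48 genes, and 24 had a log2 fold change below 0 and 24 above, with a median of -0.01. In limma 0 of the 48 met both thresholds in either direction, against 2.86% of all genes tested, and 0 passed an adjusted p of 0.05, against 1.33%. With a pseudocount of 1, a gene whose mean is below 1 FPKM in both groups cannot reach 2-fold, so the first 0 says little on most members. A mean of at least 1 was reached by 9 of them in WT stage 3 and by 10 in Med23-deficient cells. With pseudocounts of 0.1 and 0.01, 4 and 2 of the 48 met both thresholds, beside 1221 and 1211 of the 20846 genes tested. At an unadjusted p of 0.05 without the fold threshold, Smc4, Kif15 and Kif23 were lower and Aurka and Kif20a higher in Med23-deficient cells. These 5 were 10.4% of the 48, near the 10.2% of all genes at that p. The linear model after Ballgown also called 0 of the 48 by either rule. The same 5 genes and Prc1 were the 6 of the 48 without overlap between the groups, beside 14.2% of all genes. Without WT stage 3 replicate 2, 15 of the 47 genes then tested had a log2 fold change below 0. The share of all genes below 0 in that fit was not counted, so the 15 have no background beside them. The intervals were wide for single genes: for Mki67 the log2 fold change was -0.10, with an interval (95%) from -1.27 to 1.08. For Bub1 it was 0.01, from -0.07 to 0.09, at values of 0.02 FPKM and below. Aurka had the largest difference, 0.87 with an interval from 0.23 to 1.51 and an adjusted p of 0.290. Kif20a, a motor of cytokinesis, read 0, 0.12 and 0.22 FPKM in WT stage 3 and 0.96, 1.06 and 0.41 in Med23-deficient cells, within or near the 0.66 to 1.82 of WT stage 2, and its difference was 0.69 with an interval from 0.24 to 1.13 and an adjusted p of 0.219.

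Promoter letters and levels were set side by side. The 30 genes with TTTGAA within 50 bases of the start kept a median of 22.0% of their WT stage 2 mean in WT stage 3 and 19.7% in Med23-deficient cells. The 10 with a promoter entry but no such match kept 10.9% and 15.6%. Kif20b, with a pair of these letters by its start, kept 93.8% and 89.8%, while Birc5, without them, kept 4.01% and 21.0%. By these medians the share left was not smaller in the genes with the letters near the start. The 10 without a near match include Mki67, Kif2c and Ncapd2, which hold TTTGAA farther from the start, and Bub1, which holds TTCGAA. Whether the letters bear on the levels was not tested.

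Wider lists put the 48 genes in context. Of 66 further genes of mitosis, chosen by their known roles, 52 of 65 tested had a log2 fold change below 0 in the WT comparison and 55 of 66 in the Med23 comparison, with medians of -0.38 and -0.37. Below 0 lay 53.1% and 52.7% of all genes tested. Both thresholds were met by 2 and 5 of the further genes, all lower, which is 3.08% and 7.58% beside 1.9% and 1.32% of all genes. The first share is near the background, but with a pseudocount of 1 a gene below 1 FPKM in both groups cannot reach 2-fold. The other group lay wholly below WT stage 2 for 21 of 65 and 23 of 66, beside 10.4% and 8.37% of all genes, and wholly above for 2 and 0. At an unadjusted limma p of 0.05 alone, 30.8% and 33.3% were called, beside 13.2% and 9.58% of all genes. Ckap2, which encodes a microtubule-stabilising protein, read 1.89, 1.93 and 1.34 FPKM in WT stage 2, 0.03, 0.12 and 0 in WT stage 3 and 0.58, 0 and 0.31 in Med23-deficient cells. Its log2 fold change in WT stage 3 was -1.37 ± 0.17 with an adjusted p of 0.0279. Aspm, of the spindle poles, read 1.15, 0.82 and 1.28, then 0, 0.14 and 0.14, then 0, 0.10 and 0.19. Its log2 fold changes were -0.93 ± 0.15 and -0.92 ± 0.16, with adjusted p of 0.0472 and 0.112. Ska3, of the outer kinetochore, read 1.25, 0.78 and 1.29 in WT stage 2, 0, 0.87 and 0.12 in WT stage 3, and 0 in every Med23-deficient library, with a log2 fold change of -1.07 ± 0.14 and an adjusted p of 0.0701 against WT stage 2. Between Med23-deficient and WT stage 3 cells, Fam83d, a spindle-associated gene, was listed at 0 in all Med23-deficient libraries and at 0.69, 0.60 and 0.40 in WT stage 3, with a log2 fold change of -0.64 ± 0.09 and an adjusted p of 0.0416. Sgol2a, a protector of centromere cohesion, read 0.30, 0.59 and 0.36 in Med23-deficient cells and 0.22, 0.06 and 0.20 in WT stage 3, with an adjusted p of 0.470. With any 1 of the 6 libraries left out, the adjusted p of Ckap2, Aspm and Fam83d in limma lay above 0.05, at 0.0551 to 0.135, 0.0628 to 0.169 and 0.0651 to 0.162. In those fits 22 to 137 of all genes passed in the WT comparison and 72 to 174 between Med23-deficient and WT stage 3 cells. A list of 40 DNA replication genes had 35 and 38 members below 0, against the same 53.1% and 52.7% of all genes, and medians of -0.44 and -0.56. In each comparison 6 of the 40 (15.0%) met both thresholds, all lower, beside 1.9% and 1.32% of all genes.

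TTTGAA was found in 25 of the 55 further mitosis genes with a promoter entry (45.5%) and in 5 of the 32 replication genes with one (15.6%), beside 20.2% of all genes in the promoter table.

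Genes that mark other cells were summed in each library, and their part in the result was not tested. The summed FPKM of 10 genes that mark double-positive thymocytes, which also divide, was 18.7 to 24.2 in WT stage 2, 13.5 to 14.5 in WT stage 3 and 17.1 to 22.4 in Med23-deficient cells. Most of these sums came from Rmnd5a, at 5.62 to 10.6 in all 9 libraries, Cd1d1, at 1.23 to 5.97, and Themis, which T cells also express, at 3.39 to 7.60 in both stage 2 groups and 0.10 to 0.53 in WT stage 3. The recombination gene Rag1 read 0.93, 0.41 and 1.09 in WT stage 2, 1.12, 1.58 and 1.21 in WT stage 3, and 1.14, 0.15 and 1.17 in Med23-deficient cells. Dntt, which encodes terminal transferase, lay at 0 to 0.96, 0.52 to 1.83 and 0 to 0.49 in these groups. Cd8a reached 1.64 and Cd8b1 3.05 in WT stage 2, with 0.05 and 0.45 as their lowest values there. Arpp21 lay at 0.18 or below, Ptcra at 0.08 or below and Rag2 at 0.26 or below throughout, with Rag2 at 0 in all 3 WT stage 2 libraries. Sums of the B cell genes found (3 of 6) lay at 0.97 or below. Those of the myeloid genes (5 of 6 found) were 0.58 to 1.05 in WT stage 2, 2.61 to 6.19 in WT stage 3 and 0.63 to 2.32 in Med23-deficient cells, most of the WT stage 3 sums being Fcgr3, which NK-like cells share. Of the erythroid genes 1 of 6 was found, Hbb-bs, at 0.75 in WT stage 3 replicate 2 and at most 0.05 elsewhere.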

How the data were processed

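RNA of thymic iNKT cells was sequenced in 9 libraries, 3 per group. By the study's methods, the authors trimmed reads with Trimmomatic 0.36, aligned them to mm10 with HISAT2, kept reads at no more than 2 loci and quantified GENCODE vM12 genes with StringTie. The deposited values are FPKM at 2 decimals, 1 table of 21883 genes with replicates apart. No read counts were used, so depth and counting error are unknown. Reads shared with near-identical copies, such as the Ccnb2 pseudogene, may be split between them.

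From these values log2(FPKM + 1) was tested with limma 3.58.1 in R 4.3.3 (mean-variance trend), each fit holding the 6 libraries compared and every gene above an FPKM of 0 in at least 1 of them (20689, 20674 and 20846 genes). Calls used the study's thresholds (2-fold, unadjusted p 0.05) or a limit of 0.05 on p adjusted after Benjamini-Hochberg for every gene of the fit. An exact permutation test of 3 against 3 libraries cannot go below 0.1 and was not used. The scripts were tested on simulated data.

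The 48 genes, the other lists and the tests were chosen with earlier results of these data known. Genes were named in the text by role group (the 2 of highest mean FPKM in each), by an adjusted p within 0.05, as the 2 lowest and 2 highest fold changes in each comparison among those whose mean FPKM reached 1, and Mki67, Cdk1 and Foxm1 by role. Top2a, Kif2c, Nuf2, Hmmr, Ube2c, Aurkb, Kif20a and the other genes named beyond that rule were chosen after their values were seen. Further mitosis genes were named by an adjusted p within 0.05 or as the 2 lowest p of a comparison. Alternatives were other scalings, pseudocounts of 0.1 and 0.01, a filter on low values, limma without the trend and all 9 libraries in 1 fit. Further ones were a plain linear model after Ballgown, a replicate block, and each library left out. The covariate of that linear model was each library's sum of log2(FPKM + 1) over genes above 0 and below the upper quartile. It is not a read depth. Leaving WT stage 3 replicate 2 out of the counts without overlap, and each library out for every gene called, was added after seeing the data. Promoters came from RefSeq (GRCm38.p6) and were searched in Python 3.11.15 with pandas 2.3.3.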

Additional observations from a re-analysis of the deposited data

How the results depend on the processing

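In the WT comparison, genes past the fold and p thresholds numbered 21, between 16 and 30 under all alternatives but the linear model after Ballgown (9), and 17 to 23 with each library left out. Of all genes tested, 394 lower and 351 higher passed in the main fit. All genes past them numbered 1423 and 1452 with pseudocounts of 0.1 and 0.01, 772 after Ballgown and 698 to 860 in the other settings. The 4 past the adjusted p became 2 on the TPM scale without Gm23935 (the most abundant gene model) and with a common upper quartile, 7 of 23 tested at a mean FPKM of at least 1, 8 without the trend, 20 with all 9 libraries in 1 fit, 0 after Ballgown and 0 to 2 with each library left out. In the same order, all genes past it numbered 245, 295, 496, 420, 626, 5 and 22 to 137, beside 189 lower and 157 higher in the main fit. The median of -0.88 was -2.02 and -2.70 with pseudocounts of 0.1 and 0.01, -1.26 at a mean FPKM of at least 1 and -0.73 after Ballgown. In the Med23 comparison the 19 genes became 30 and 29 with pseudocounts of 0.1 and 0.01 and 11 after Ballgown, and 17 to 22 with each library left out. In the same order, all genes past the thresholds numbered 971, 974, 384 and 471 to 544, beside 272 lower and 165 higher in the main fit. The 2 past the adjusted p became 5 of 22 tested at a mean FPKM of at least 1, 6 without the trend, 11 with all 9 libraries, 0 after Ballgown and 0 with any 1 library left out. In the same order, all genes past it numbered 143, 62, 176, 1 and 1 to 8, beside 30 lower and 14 higher in the main fit. The median of -0.90 was -2.15 and -2.50 with the smaller pseudocounts and -1.19 at a mean FPKM of at least 1. Against WT stage 3 the 0 genes became 4 and 2 with pseudocounts of 0.1 and 0.01 and 0 to 1 with each library left out. In the same order, all genes past the thresholds numbered 1221, 1211 and 594 to 740, beside 597 in the main fit. Smaller pseudocounts by construction raise the fold changes of low genes. The other causes were not tested. On the TPM scale the median over all genes whose mean FPKM reached 1 shifted from -0.05 to -0.14 in the WT comparison and to -0.16 in the Med23 comparison, and the members below 0 stayed 48 and 47.

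As deviations from group means, same-numbered libraries correlated at 0.00429 to 0.161 in the comparisons with WT stage 2 and at 0.0423 to 0.272 against WT stage 3. All were positive, and in each comparison replicate 3 gave the highest, at 0.161, 0.144 and 0.272. Libraries of different numbers were not correlated, so these values cannot tell whether the numbers pair the libraries. With the replicate block, 20, 18 and 0 genes met the fold and p limits, and 0 met the adjusted p in each of the 3 comparisons. Of all genes tested, 758, 453 and 612 met the former and 19, 0 and 42 the latter. Depth is unknown, so low values have no counting error.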
